A study of Bos taurus with 14 samples.

Results

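The genes described here are the solute carrier (SLC and SLCO) transporters on a custom bovine expression array. They were chosen by name: every non-control probe whose gene name, or gene symbol in brackets in its description, begins with SLC and a number or with SLCO. The rule took 103 genes, read by 104 spots, among 15011 distinct array sequences. Only SLC5A7, a choline carrier, was printed on 2 spots. The rule also takes SLC9A3R1, a scaffold protein that binds carriers and is not one itself. A further 33 array sequences have a carrier symbol only in the current RefSeq gene table and were left out by the rule.

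Liver came from 3 Holstein cattle (animals 58, 61 and 66) and peripheral blood neutrophils from 4 other Holstein cattle (animals 25, 26, 32 and 34). The animals were heifers or steers that took 0.2 mg per kg body weight of β-cryptoxanthin, a carotenoid that can be cleaved to vitamin A, by mouth on day 0. Each animal was sampled on day 0 and day 7, which gave 14 single-dye arrays in 4 groups: liver on day 0, liver on day 7, neutrophils on day 0 and neutrophils on day 7. All groups came from supplemented animals and untreated animals were not analysed here, so the carotenoid and the passing of 7 days cannot be told apart. Ages are not given in the sources used here.

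Solute carriers are membrane proteins that move sugars, amino acids, organic ions, metals, nucleosides and mitochondrial metabolites across membranes, without splitting ATP themselves. Many use the sodium, proton or chloride gradient, and some form pairs in which a heavy chain brings the light, transporting chain to the cell surface. Hepatocytes are known for carriers that take bile acids and organic anions from blood and that let glucose pass in and out. Neutrophils rely on glucose uptake and glycolysis, and their phagosomes carry metal transporters.

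The arrays read each carrier through a probe of 60 bases. The first 30 bases of 7 of these probes are printed in the order the files give them. They are carriers with large differences between the tissues, and SLC10A1, which had the largest day 7 change in liver but did not pass. The carriers that passed between the days are not among the 7. SLC2A2 and SLC2A3 are the glucose carriers found in opposite tissues, SLCO1B4, SLC22A9 and SLC17A2 are organic anion or phosphate carriers found above background only in liver, SLC11A1 is a phagosomal metal carrier, and SLC10A1 is the sodium-dependent bile acid carrier.
SLC2A2: acgctctctgttcctaattggaatgagtgg
SLC2A3: cgctcagaggatcccaaggctggggttagt
SLCO1B4: ttaatagtctaaatatggagaaaagcccga
SLC22A9: gacatccagaataggcttgtggcatgtaga
SLC17A2: tcagtggggtttttcagccatttctggtta
SLC11A1: aagagtctgaaaatgctaaataaatgctgt
SLC10A1: gcaaacacatacacacacaggcacattaag
The median GC content of the carrier probes was 45.0%, against 43.3% for all array sequences. A run of 16 or more bases was shared with another array sequence, on either strand, in 8 cases. The longest were 39 bases for SLC9A3R1, on the opposite strand, and 37 bases for SLC15A1. No pair of carrier probes shared such a run, so the closely related ADP/ATP carriers SLC25A4, SLC25A5 and SLC25A6 were read by unlike sequences. The file's SLCO1B4 has an accession that RefSeq now names SLCO1B3.

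Levels are log2 of the processed spot signal minus the 75th percentile of that array, so a level of 0 equals that percentile. A level is compared between samples only for the same probe. Per array, 82 to 85 carriers were well above background in liver on day 0, against 68 to 81 on day 7, where animal 58 had the fewest. The range was 67 to 72 in neutrophils on day 0, against 58 to 69 on day 7, where animal 34 had the fewest and a median processed signal of 48.2 over all spots. Of all array sequences, 74.5% to 76.5% were above background in liver on day 0 and 62.5% to 75% on day 7, with 63.3% to 71.4% and 56.9% to 68.7% in neutrophils. All 19 measured hepatocyte markers were above background on every liver array, with a summed linear level of 1140 to 1909 there and 2.19 to 6.23 in neutrophils. All 13 measured neutrophil markers were above background on every neutrophil array, with a summed level of 746 to 1521 there and 6.33 to 14.8 in liver. Liver arrays lay on slide 1 and neutrophil arrays on slide 2, with day 0 in the first row of arrays on each and day 7 in the second. Tissue and slide, and day and position on the slide, therefore cannot be told apart.

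Of the 103 carriers, 45 (43.7%) were well above background on all 14 arrays, 8 on none, and 31 (30.1%) on some arrays of both tissues or on a minority of one. Over all array sequences 48.0% were above background on all arrays and 29.4% fell in the mixed class. The carriers seen on every array included 11 of the 13 mitochondrial carriers, 6 of the 9 metal ion carriers and 8 of the 20 members of the amino acid families. The 8 on no array were SLC2A12, SLC4A1, SLC4A10, SLC5A7, SLC10A4, SLC10A6, SLC24A1 and SLC39A12. They made up 7.77% of the carriers, against 13.4% of all array sequences. SLC4A1 is the anion exchanger of red cells. The 2 spots of SLC5A7 were not both above background on any array, and its level lay between -9.02 and -6.60.

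Above background on all 6 liver arrays and on none of the 8 neutrophil arrays were 12 carriers, or 11.7% of the 103. Over all array sequences the share was 4.74%. By substrate they were the glucose carriers SLC2A2 and SLC2A4, the organic anion carriers SLCO1A2, SLCO1B4 and SLC22A9, and the carnitine carrier SLC22A16. The others were the amino acid carriers SLC1A3 and SLC7A9, the phosphate carrier SLC17A2, the monocarboxylate carrier SLC16A7, the mitochondrial oxodicarboxylate carrier SLC25A21 and the anion exchanger SLC26A10. Since the rule asks for every liver array and no neutrophil array, leaving out arrays can only add carriers to these 12. Leaving out liver animal 58 added SLC1A1 and SLC26A2, and leaving out neutrophil animal 34 added SLC17A3. With the arrays of day 0 alone the number was 18, which added SLC1A1, SLC5A1, SLC15A1, SLC17A3, SLC26A2 and SLCO2A1 to the 12. The share of all array sequences with fewer arrays required in this way was not counted.

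SLC2A3, the high-affinity glucose carrier, was the 1 carrier above background on all 8 neutrophil arrays and no liver array. This was 0.971% of the carriers, against 0.733% of all array sequences. With more than 4 of the 8 arrays required in place of all, SLC5A3, a sodium-coupled inositol carrier, and SLC8A1, a sodium-calcium exchanger, also met the rule. This looser rule added 1.94% of the carriers, against 1.31% of all array sequences. SLC8A1 was above background on 4 of 4 neutrophil arrays on day 0 and 3 of 4 on day 7, SLC5A3 on 4 and 2. On day 7 alone 4 carriers met the rule of all arrays: SLC2A3, SLC6A6, SLC12A2 and SLC22A6. The share of all array sequences was not counted for that day. The number with 1 animal left out was 1 or 2. It was 2 without liver animal 66, which added SLC6A6, and 2 without neutrophil animal 34, which added SLC8A1.

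**Figure D1:**
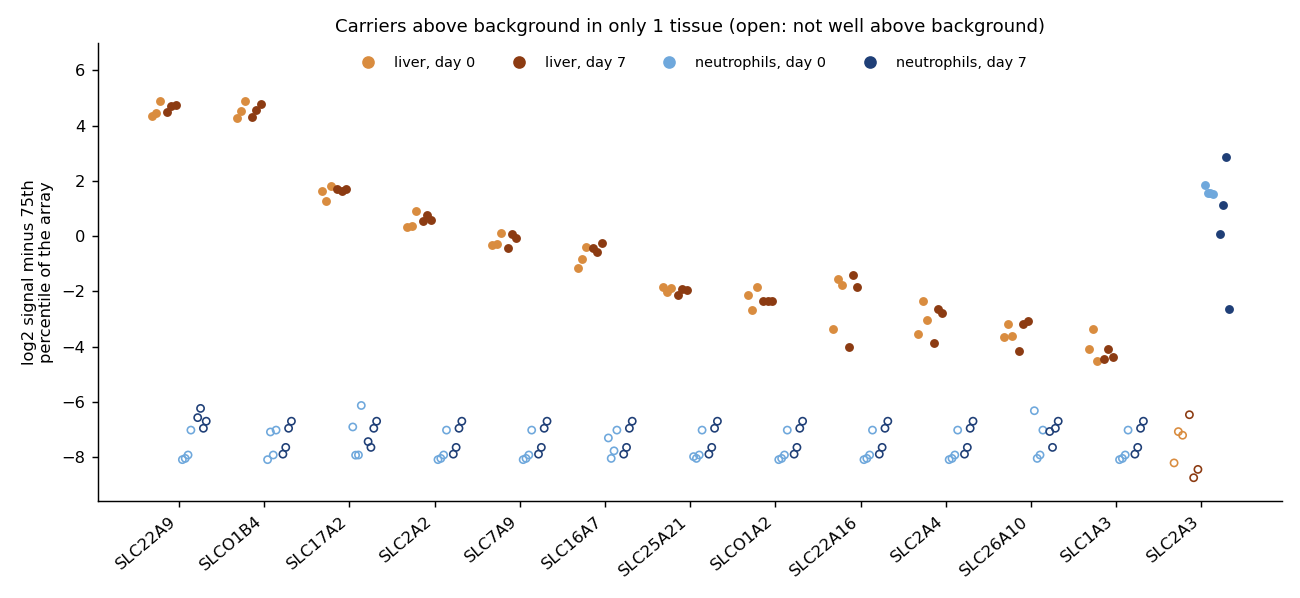
Level of the 13 carriers above background in only 1 tissue, in each of the 14 arrays. The vertical axis is log2 processed signal minus the 75th percentile of the array, filled points are arrays of the tissue where the probe was well above background, and open points are arrays of the other tissue. The 12 carriers on the left are filled in liver, and SLC2A3 on the right is filled in neutrophils with a wider spread on day 7 (-2.64 to 2.87) than on day 0 (1.51 to 1.85). Heights should be compared within a carrier only.

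The comparison of liver with neutrophils on day 0 shows how far carrier transcripts differed between the tissues on the day of supplementation. In bulk RNA, fewer cells of a type and less RNA per cell cannot be told apart. Of the 87 carriers tested, 37 were higher in liver and 35 lower (limma, adjusted p under 0.05). Over all probes tested, 39.7% were higher in liver and 43.4% lower, so the carriers split much as the array did. The median difference was 0.02 on the log2 scale for the carriers and -0.12 for all probes. A carrier measured in only 1 tissue entered the test through that tissue, and the other 16 carriers were not above background on every array of either group. With the test kept to the 59 carriers above background on every array of both groups, 18 were higher in liver (30.5%) and 28 lower (47.5%), against 32.6% and 49.8% of all probes so chosen. Of the 24 textbook carriers of liver and blood cells on the array, 23 were tested, 12 were higher in liver and 8 lower.

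The glucose carriers of the SLC2 family lay in opposite tissues. SLC2A2, the low-affinity glucose carrier of hepatocytes, had levels of 0.31, 0.35 and 0.92 in liver on day 0 and 0.54, 0.75 and 0.60 on day 7. In neutrophils it was not well above background on any array, with levels from -8.10 to -6.70. It was at least 64.3-fold higher in liver on day 0 (limma, adjusted p = 6.74e-08). The bound for a probe without a measured level sets the brighter mean against the lowest signals that were well above background on the dim arrays. The adjusted p beside such a bound is that of the fit on signals not above background, for a probe that was tested only because it was bright in the other tissue, so only the bound gives the size. Differences between measured levels are given on the log2 scale with their standard error.

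SLC2A3 ran the other way. Its neutrophil levels on day 0 were 1.85, 1.57, 1.55 and 1.51, and it was not well above background on any liver array (-8.75 to -6.47). It was at least 309.8-fold lower in liver on day 0 (adjusted p = 3.29e-08). SLC2A6, a glucose carrier of lysosomes, was at 1.1, 0.99, 0.90 and 1.56 in neutrophils and -3.27, -3.60 and -3.16 in liver, with no overlap (-4.48 ± 0.21, adjusted p = 2.44e-07). SLC2A4, the insulin-responsive glucose carrier of muscle and fat, was at -3.53, -2.36 and -3.04 in liver on day 0 and at least 5.66-fold higher there than in neutrophils.

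SLC2A1, the widespread glucose carrier, overlapped between the tissues, at -0.66, -0.58 and -0.89 in liver and -1.16, -1.07, -0.12 and -0.92 in neutrophils. The difference of 0.11 ± 0.27 did not pass (adjusted p = 0.716), and its sign turned to -0.0246 under quantile normalization. SLC5A3 was at least 5.43-fold lower in liver, and SLC5A1, the sodium-glucose carrier of the gut, at least 1.23-fold higher. In all, 4 of the 11 tested members of the sugar families were higher in liver and 5 lower, against 39.7% and 43.4% of all probes. These families (SLC2, SLC5 and SLC37) also hold inositol, choline and vitamin carriers.

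Among the carriers of bile acids and organic ions, SLC22A9, an organic anion carrier, had liver levels of 4.35, 4.47 and 4.90 on day 0. It was not well above background on any neutrophil array (-8.10 to -6.24). It was at least 1061-fold higher in liver (adjusted p = 1.28e-08). SLCO1B4, of the family that takes bile acids and bilirubin into hepatocytes, had liver levels of 4.28, 4.52 and 4.88. It was at least 1050-fold higher in liver (adjusted p = 1.63e-08). SLCO1A2, a related uptake carrier, was at least 9.60-fold higher and SLC22A16 at least 9.5-fold.

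SLC10A1, the sodium-dependent bile acid carrier of hepatocytes, was measured in both tissues and spread widely in liver. Its levels were 0.10, -1.15 and -3.04 in liver and -4.23, -4.74, -5.37 and -3.96 in neutrophils, without overlap (3.21 ± 0.68, adjusted p = 0.00228). SLC22A5, the sodium-coupled carnitine carrier, was at -2.45, -2.23 and -2.29 in liver and -4.32, -4.91, -4.35 and -4.52 in neutrophils (2.20 ± 0.19, adjusted p = 8.53e-06). Of the 12 members of this class tested, 8 were higher in liver and 3 lower, against 39.7% and 43.4% of all probes. Among the 8, SLC22A9, SLCO1B4, SLCO1A2, SLC22A16 and SLCO2A1 entered the test through liver, being above background on no neutrophil array on day 0. The bound of SLCO2A1 was only 0.80-fold, which does not show a higher level in liver. The 3 lower in liver were SLCO3A1 (-2.85 ± 0.20), SLCO4C1 (-1.98 ± 0.16) and SLC22A6, an organic anion carrier best known from kidney. SLC22A6 was above background on 2 of 3 liver arrays, so its fit rests in part on a signal not above background (adjusted p = 0.0160).

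The phosphate and urate carriers of the SLC17 family were far higher in liver. SLC17A3 had levels of 2.32, 1.73 and 2.49 in liver on day 0 and was at least 201.6-fold higher than in neutrophils, where it was above background on 0 of 4 arrays that day and 1 of 4 on day 7. SLC17A2, at 1.62, 1.28 and 1.80 in liver, was at least 132.1-fold higher. SLC34A1, a sodium-phosphate carrier best known from kidney, was lower in liver (-2.58 ± 0.19, adjusted p = 3.53e-06). SLC15A1, a proton-coupled peptide carrier, was at least 11.4-fold higher in liver.

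Of the 17 amino acid family members tested, 5 were higher in liver and 10 lower, against 39.7% and 43.4% of all probes. The median difference of the 17 was -0.95, against -0.12 for all probes. SLC6A6, the taurine carrier, was at -0.12, 0.07, -0.53 and -0.44 in neutrophils and -7.59, -6.94 and -6.61 in liver, where 1 of 3 arrays was above background (adjusted p = 9.80e-08). It was tested through its neutrophil levels, and this fit rests mostly on liver signals not above background. SLC38A2, a sodium-coupled neutral amino acid carrier, was at 1.11, 1.17, 0.70 and 0.47 in neutrophils and -2.79, -3.37 and -3.14 in liver (-3.97 ± 0.23, adjusted p = 9.08e-07). The 2 groups did not overlap for either carrier, though most liver values of SLC6A6 were not above background.

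Light chains and their heavy chains could be read as pairs. SLC3A2, the heavy chain of several exchangers, was lower in liver (-0.95 ± 0.18, adjusted p = 0.00136). Its light chains SLC7A7, for basic amino acids (-3.31 ± 0.19, adjusted p = 7.99e-07), and SLC7A5, for large neutral ones (-2.47 ± 0.45, adjusted p = 0.00090), were lower in liver as well. The spot of SLC7A7 is in row 8, and with the row trend removed its difference was -1.97 (adjusted p = 1.90e-05). The other pair, the cystine carrier SLC7A9 and its heavy chain SLC3A1, was higher in liver. SLC7A9 had liver levels of -0.34, -0.29 and 0.10 and was at least 39.5-fold higher, and SLC3A1 was higher by 3.57 ± 0.26 (adjusted p = 3.64e-06).

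SLC38A3, a glutamine carrier of hepatocytes (2.42 ± 0.28, adjusted p = 6.00e-05), and the glutamate carriers SLC1A3 (at least 2.79-fold) and SLC1A1 (at least 2.07-fold) were higher in liver. SLC1A5, a neutral amino acid exchanger, overlapped between the tissues on day 0 (-0.85 ± 0.49, adjusted p = 0.135). Without liver animal 61 its difference passed (-1.40, adjusted p = 0.0125). It also passed with the day 7 arrays (-1.21, adjusted p = 0.0408), where the tissues overlapped too.

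**Figure D2:**
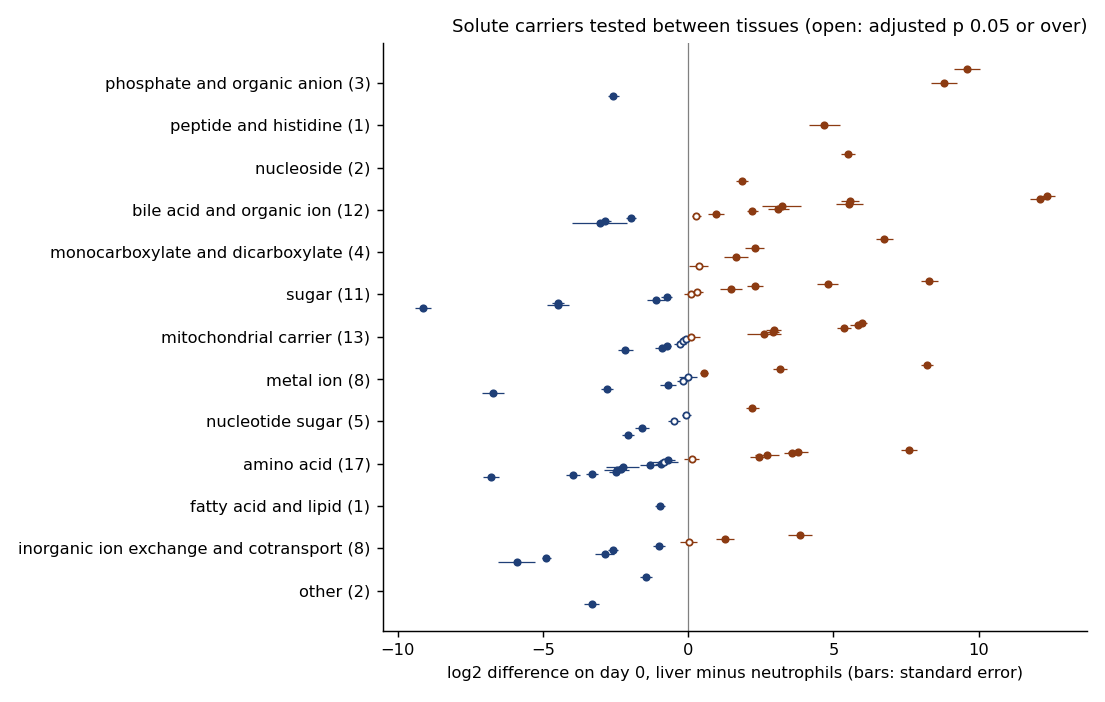
Difference between liver and neutrophils on day 0 for the 87 carriers tested, by family group. The horizontal axis is the log2 difference, liver minus neutrophils, with bars of 1 standard error, and the number in brackets is how many carriers of the group were tested. Filled points passed an adjusted p of 0.05, 37 to the right of 0 and 35 to the left. Points for probes without a measured level in 1 tissue are fitted values, not bounds.

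Mitochondrial carriers, which sit in the inner membrane and exchange metabolites with the cytosol, were mostly measured in both tissues. Of 13 tested, 6 were higher in liver and 3 lower, against 39.7% and 43.4% of all probes. SLC25A22, a glutamate carrier, was at 2.76, 2.75 and 2.92 in liver and -3.15, -3.35, -3.13 and -3.11 in neutrophils (6.0 ± 0.15, adjusted p = 1.38e-08). SLC25A21 was at least 11.8-fold higher in liver. The 3 ADP/ATP carriers differed in their spread over the tissues: SLC25A4 was higher in liver by 5.37 ± 0.24 (adjusted p = 1.82e-07), while SLC25A5 (-0.29 ± 0.19, adjusted p = 0.200) and SLC25A6 (-0.08 ± 0.17, adjusted p = 0.648) did not pass.

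With the day 7 arrays SLC25A5 did pass (-0.77, adjusted p = 0.0274), and with the trend along the spot rows removed its sign turned (0.14). SLC25A20, the carnitine-acylcarnitine carrier of fatty acid oxidation, was at 3.07, 3.21 and 3.04 in liver and ranged from -0.62 to 1.97 in neutrophils (2.61 ± 0.59, adjusted p = 0.00310). SLC25A16 was lower in liver (-2.17 ± 0.26, adjusted p = 6.68e-05). SLC25A11, the oxoglutarate carrier (-0.74 ± 0.16), and SLC25A29, for basic amino acids (-0.92 ± 0.24), were also lower, but neither passed with the day 7 arrays or under quantile normalization.

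Among metal carriers, SLC11A1, which moves iron and manganese out of the phagosome, had neutrophil levels of 4.59, 4.86, 3.25 and 4.11 on day 0. Its liver levels were -2.62, -2.89 and -2.05, well above background on every array (-6.72 ± 0.39, adjusted p = 8.81e-07). SLC31A2, a copper carrier, was also lower in liver (-2.81 ± 0.21, adjusted p = 3.92e-06). The zinc carrier SLC39A5 was at 3.92, 3.63 and 4.05 in liver and between -4.67 and -3.97 in neutrophils (8.21 ± 0.21, adjusted p = 1.57e-08), and SLC39A11 was higher in liver by 3.16 ± 0.24.

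SLC39A7 (0.53 ± 0.14) and SLC39A3 (-0.69 ± 0.27) passed on day 0 and neither passed with the day 7 arrays. SLC39A3 also missed the threshold without liver animal 66 (-0.36, adjusted p = 0.135) and without neutrophil animals 25, 26 or 32 (adjusted p = 0.0737 to 0.0944). In this class 3 of 8 tested members were higher in liver and 3 lower, against 39.7% and 43.4% of all probes.

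Ion exchangers and cotransporters were lower in liver in 5 of 8 tested members and higher in 2, against 43.4% and 39.7% of all probes. SLC26A2, counted as higher, was above background on no neutrophil array on day 0. Its bound was only 0.72-fold, which does not show a higher level in liver. SLC12A2, the sodium-potassium-chloride cotransporter, was at -0.34, -0.30, 0.08 and -0.64 in neutrophils and -7.62, -4.46 and -6.56 in liver, where 2 of 3 arrays were above background (adjusted p = 3.93e-05). SLC8A1 was at least 6.01-fold lower in liver. SLC26A6, an anion exchanger, was lower in liver too, where 1 of 3 arrays was above background (adjusted p = 4.05e-05). SLC12A2 and SLC26A6 were tested through their neutrophil levels, and their fits rest in part on liver signals not above background. SLC26A10 was at least 3.99-fold higher in liver.

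Of the 4 monocarboxylate and dicarboxylate carriers and the 2 nucleoside carriers tested, none was lower in liver, against 43.4% of all probes. SLC16A7, a lactate and pyruvate carrier, was at -1.14, -0.82 and -0.42 in liver and at least 25.7-fold higher than in neutrophils, and SLC16A1 (1.66 ± 0.41, adjusted p = 0.00533) and the dicarboxylate carrier SLC13A2 (2.29 ± 0.33, adjusted p = 2.10e-04) were also higher. SLC29A1, the equilibrative nucleoside carrier, was at 4.05, 3.34 and 4.22 in liver and between -1.88 and -1.46 in neutrophils (5.50 ± 0.24, adjusted p = 1.77e-07). SLC28A1, a sodium-coupled nucleoside carrier, was higher by 1.85 ± 0.22.

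Of the 5 nucleotide sugar carriers of the Golgi, 1 was higher in liver and 2 lower, against 39.7% and 43.4% of all probes. SLC35A1, the CMP-sialic acid carrier, was higher in liver (2.20 ± 0.22, adjusted p = 2.49e-05). SLC35C1, the GDP-fucose carrier (-1.59 ± 0.23), and SLC35B2, which carries the sulfate donor PAPS (-2.08 ± 0.21, adjusted p = 2.68e-05), were lower. SLC35B2 did not pass with the row trend removed (-0.21, adjusted p = 0.434) or on day 7 (-0.12, adjusted p = 0.740). SLC18A2, the vesicular monoamine carrier, was lower in liver (-3.33 ± 0.26, adjusted p = 5.20e-06), as were the fatty acid carrier SLC27A1 (-0.97 ± 0.18) and SLC9A3R1 (-1.46 ± 0.22). With the day 7 arrays, 76 carriers were tested, 31 were higher in liver and 25 lower, against 34% and 35.1% of all probes.

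Other transport genes on a separate list (sodium pump subunits, ABC transporters, aquaporins, porins and partners) had 19 of 27 tested members higher in liver on day 0 and 7 lower. Over all probes tested, 39.7% were higher and 43.4% lower. The list was chosen with earlier results of these data known. Some of its members, such as ABCB1, ABCG5 and ABCG8, were above background on no neutrophil array and entered the test through liver. Among those higher in liver were PDZK1, a scaffold for carriers (6.82 ± 0.33, adjusted p = 3.04e-07), and BSG, the chaperone of monocarboxylate carriers (3.24 ± 0.15, adjusted p = 2.26e-07).

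The comparison of day 7 with day 0 in liver asks which carriers differed after supplementation in the same animals. Of 80 carriers tested, 3 were higher on day 7 and 1 lower (adjusted p under 0.05 in the limma fit, blocked by animal). Over all probes tested 2.67% were higher and 1.32% lower. The median change was -0.05 for the carriers and -0.04 for all probes. All 4 carriers lie within 40 spot rows of an edge of the 192-row array, and none of the 49 carriers tested in the inner rows passed. With the inner rows tested alone, no probe of any gene passed.

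SLC35B2 was at -0.78, -0.27 and -0.26 in liver on day 0 and 1.46, 1.45 and 1.03 on day 7 in animals 58, 61 and 66. The levels did not overlap and rose by 1.75 ± 0.20 (adjusted p = 0.0259). SLC26A2, a sulfate carrier, was at -5.80, -5.94 and -6.14 on day 0 and -5.00, -4.77 and -5.40 on day 7 (0.90 ± 0.13, adjusted p = 0.0406). It was dim, above background on 3 of 3 arrays on day 0 and 2 of 3 on day 7.

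SLC34A1 was at -5.37, -5.24 and -4.93 on day 0 and -4.29, -4.53 and -4.21 on day 7 (0.84 ± 0.12, adjusted p = 0.0421). SLC35A1 was at 0.55, 0.58 and 0.64 on day 0 and -0.10, 0.01 and 0.04 on day 7, a change of -0.61 ± 0.10 (adjusted p = 0.0483). Neither carrier overlapped between the days, and all 3 animals moved the same way for each of the 4.

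The median change of all probes in liver differed with the position of the spot. In the first 40 rows, where SLC35B2 (row 3), SLC26A2 (row 22) and SLC34A1 (row 32) lie, the median change of all probes was 0.20, against -0.04 in the inner rows. In the last 40 rows, where SLC35A1 (row 190) lies, it was -0.16. In the blocks of 8 rows that hold the spots, the median of all probes was 0.93 for SLC35B2, 0.15 for SLC26A2, 0.08 for SLC34A1 and -0.62 for SLC35A1, whose own change was -0.61. With a smooth trend along the rows removed from each array, none of the 4 passed. Over all probes 27 passed in that fit, against 436 in the main fit. SLC35B2 then changed by 0.54 (adjusted p = 0.329), SLC26A2 by 0.68 (0.145), SLC34A1 by 0.70 (0.135) and SLC35A1 by 0.10 (0.718). Under normexp background correction with quantile normalization SLC26A2 (0.12) and SLC34A1 (0.22) did not pass. With no filter on dim probes no probe of the array passed, and the change of SLC35B2 was the same 1.75 (adjusted p = 0.153). The part of the position in these changes was not tested beyond that.

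Leaving out animals also ended the calls. Without animal 58 no carrier passed and no probe of the array, without animal 61 no carrier and 108 probes, and without animal 66 SLC35B2 and SLC10A1 among 163 probes. Over all 3 animals 436 probes passed. The change of SLC35B2 was 1.5, 1.76 and 1.98 in these fits. Without the animal as a block SLC35B2 passed alone (adjusted p = 0.0154). Markers of skeletal muscle moved in the same samples. Of 14 measured, 4 were above background on every liver array on day 0 and 11 on day 7, and their summed level went from 0.36 to 0.54 at the start to 5.20 to 20.2 a week later. Their part in the carriers' changes was not tested. SLC2A4, the carrier of muscle among the 12 liver ones, changed by -0.11 ± 0.16 (adjusted p = 0.771).

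**Figure D3:**
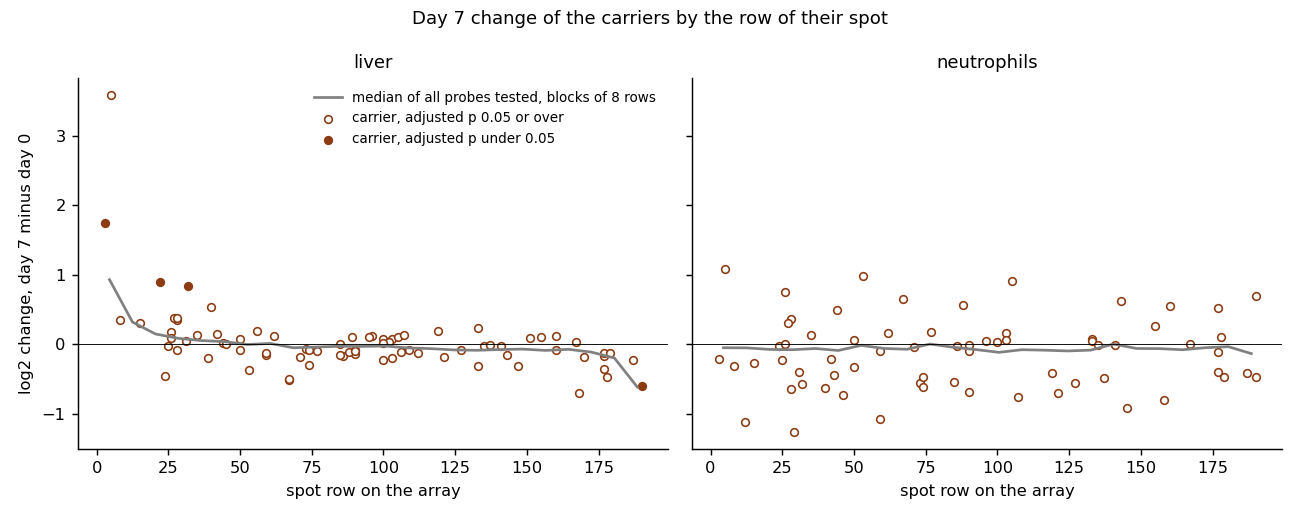
Day 7 change of the carriers against the row of their spot, in liver (left, 80 carriers) and neutrophils (right, 67 carriers). The vertical axis is the log2 change, day 7 minus day 0, filled points passed an adjusted p of 0.05, and the grey line is the median of all probes tested in blocks of 8 rows. In liver the grey line bends up in the first rows and down in the last, and the 4 filled points lie there; in neutrophils it stays near 0.

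SLC10A1 had the largest change in liver. Its levels were 0.10, -1.15 and -3.04 on day 0 and 4.22, 3.90 and -1.44 on day 7 in animals 58, 61 and 66. It was higher in each animal, by 4.12, 5.05 and 1.60, but the days overlapped and the change of 3.59 ± 0.68 did not pass (adjusted p = 0.0749). Its spot is in row 5, and with the row trend removed the change was 2.54 (adjusted p = 0.242). It passed without animal 66 (4.58, adjusted p = 0.0177) and when only probes above background on every liver array were tested (adjusted p = 0.0444). The summed level of hepatocyte markers lay between 1140 and 1327 on day 0, and between 1495 and 1909 on day 7. The markers moved by unlike amounts, and FGA was the only 1 of the 19 measured with a lower mean on day 7. In the first rows, mean AMBP (row 7) went from 6.15 to 7.78 and FGB (row 19) from 5.99 to 7.04. In the inner rows TTR (row 90) went from 3.84 to 4.15, AHSG (row 75) from 7.07 to 7.21 and FGA (row 130) from 6.28 to 5.97. The part of spot position in the sum was not tested.

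The 12 carriers above background only in liver were all tested between the days, none passed, and their changes ran from -0.31 to 0.38. SLCO1B4 changed by 0.00042 ± 0.099 (adjusted p = 0.998), SLC22A9 by 0.07 ± 0.12 (adjusted p = 0.814) and SLC2A2 by 0.10 ± 0.17 (adjusted p = 0.814). The 13 mitochondrial carriers ran from -0.46 to 0.54 and none passed. The nearest to the threshold was SLC25A1, the citrate carrier, with a change of 0.54 ± 0.10 (adjusted p = 0.0641, row 40). It passed with normexp and quantile normalization together (0.51, adjusted p = 0.0265) and when only probes above background on every liver array were tested (adjusted p = 0.0393). Of the other transport genes, 27 were tested, 1 rose (ATP2A1, the calcium pump of fast muscle, 1.93 ± 0.26, adjusted p = 0.0357) and 1 fell (VDAC2, a mitochondrial porin, -1.62 ± 0.22, adjusted p = 0.0368). Over all probes tested 2.67% were higher and 1.32% lower. Both spots lie at the last edge of the array, ATP2A1 in row 190 and VDAC2 in row 192. In that block of 8 rows the median change of all probes was -0.62, below 0 like the change of VDAC2 and unlike that of ATP2A1. ATP2A1 is also 1 of the 14 skeletal muscle markers measured. The part of the position or of muscle transcripts in these changes was not tested.

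In neutrophils no carrier passed between the days. Of 67 tested by limma, 0 had an adjusted p under 0.05 and 6 an unadjusted p under 0.05. Over all probes 13.4% had an unadjusted p under 0.05 and none passed after adjustment. The median change was -0.09 for the carriers and -0.07 for all probes. The count after adjustment was 0 under every alternative, with 2 to 15 carriers at an unadjusted p under 0.05. The carriers named next have the smallest p in each direction.

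SLC22A5 was at -4.32, -4.91, -4.35 and -4.52 on day 0 and -3.38, -3.25, -3.86 and -3.67 on day 7 in animals 25, 26, 32 and 34. The levels did not overlap, and the change was 0.98 ± 0.28 (adjusted p = 0.311). SLC18A2 was at -2.00, -3.04, -2.58 and -2.21 on day 0 and -1.15, -2.71, -1.60 and -0.73 on day 7, higher in each of the 4 animals with overlapping days (0.91 ± 0.28, adjusted p = 0.311). SLC10A1 changed by 1.08 ± 0.38 (adjusted p = 0.331), with a change below 0 in animal 26.

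SLC6A6 was at -0.12, 0.07, -0.53 and -0.44 on day 0 and -0.97, -0.60, -0.48 and -2.16 on day 7 (-0.80 ± 0.33, adjusted p = 0.363). The days overlapped, and animal 32 did not share the direction. SLC5A3 changed by -1.13 ± 0.48 (adjusted p = 0.373) and was above background on 2 of 4 arrays on day 7. Animal 34 had the largest change, -3.08. Its day 7 signal there was 5.42, the same as that of SLC2A2, which was not above background, so this change is not between measured levels. SLC31A2 changed by -0.56 ± 0.28 (adjusted p = 0.416).

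SLC2A3 and SLC38A2, both higher in neutrophils than in liver, spread widely over the neutrophil samples of day 7. SLC2A3 was at 0.07, 1.12, 2.87 and -2.64 on day 7 in animals 25, 26, 32 and 34, against 1.51 to 1.85 on day 0 (-1.26 ± 0.78, adjusted p = 0.477). Animal 32 was higher on day 7 and the other 3 animals lower. SLC38A2 was at 0.10, 0.72, 1.53 and -3.20 on day 7 (-1.08 ± 0.66, adjusted p = 0.470), again highest in animal 32 and lowest in animal 34. SLC11A1 was between 3.99 and 4.41 on day 7 (-0.03 ± 0.32, adjusted p = 0.971). For SLC29A1 the fit had no day 7 value of animal 34, whose spot was flagged as an outlier by the scanner software (0.13 ± 0.33, adjusted p = 0.869).

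Other cells' transcripts also differed between the neutrophil samples. The summed level of 11 T and cytotoxic cell markers lay between 10.3 and 36.0 on day 0, against 22.6 to 103.3 on day 7, and that of 3 B cell markers 2.70 to 5.60 and 5.97 to 10.3. GZMB weighs most in the sum of the 11, with a mean level of 3.78 on day 0 and 5.09 on day 7. The next highest on day 7, CD3E, went from 1.11 to 1.88. In the mean, LCK (-2.95 to -3.40), CD6 and NKG7 were lower on day 7 and the others higher. Of the 8 red cell markers, 4 were above background on every neutrophil array on day 0 (ALAS2, AHSP, HBG and SPTB) and 2 on day 7 (ALAS2 and AHSP), while the globins HBB and HBA were above it on none. The summed level of the list lay between 2.19 and 4.73 on day 0, against 1.52 to 4.13 on day 7. The part of these cells in the carriers' changes was not tested. Of the other transport genes 18 were tested in neutrophils and none passed.

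**Figure D4:**
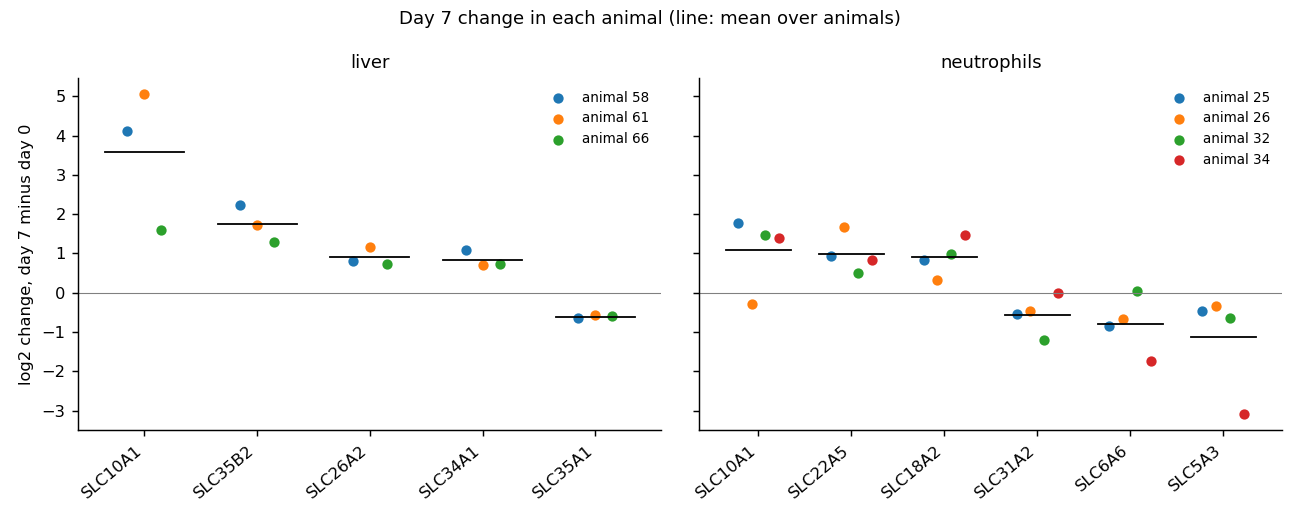
Day 7 change in each animal for the carriers named in the comparison of days. The vertical axis is the log2 change, day 7 minus day 0, points are animals and the line is the mean over animals. In liver SLC35B2, SLC26A2 and SLC34A1 are above 0 and SLC35A1 below 0 in all 3 animals, and SLC10A1 runs from 1.60 to 5.05; in neutrophils SLC22A5 and SLC18A2 are above 0 in all 4 animals and none of the 6 passed.

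Whether the change over 7 days differed between the tissues was tested for the 59 carriers measured in both. SLC35B2 passed, its change being higher in liver than in neutrophils by 1.96 ± 0.36 (limma interaction, adjusted p = 0.0475), and no carrier passed in the other direction. Over all probes 1.17% passed. With the row trend removed the difference was 0.70 (adjusted p = 0.476). It also missed the threshold without liver animal 58, 61 or 66 (adjusted p = 0.127 to 0.231) or without neutrophil animal 25, 26 or 32 (adjusted p = 0.0523 to 0.154), and passed without animal 34 (2.17, adjusted p = 0.0162).

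SLC22A5 (-1.36 ± 0.32, adjusted p = 0.0943) and SLC35A1 (-1.30 ± 0.31, adjusted p = 0.0974) were next. Without neutrophil animal 32 both passed, SLC22A5 at -1.53 (adjusted p = 0.0456) and SLC35A1 at -1.51 (adjusted p = 0.0300). With the row trend removed SLC22A5 differed by -1.37 (adjusted p = 0.171) and SLC35A1 by -0.63 (adjusted p = 0.465). The level of SLC35A1 was higher on day 7 in each of the 4 neutrophil animals, by 0.05 to 1.12, and its call in liver ended with the row trend removed.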

How the data were processed

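Liver of 3 cattle and neutrophils of 4 others were measured on 14 Cy3 arrays, with RNA extracted by Trizol and labelled by linear amplification, per the labels' protocols. The spot intensity used is the processed signal of Agilent Feature Extraction 9.5 (per the submitters' processing notes), background-subtracted per the file headers. Mean and background intensities, used for 1 alternative, are uncorrected per the file headers. The software's flags (outlier, saturated, above background) and the spot positions come from other columns, per the file headers. In the authors' deposited table each log2 value is log2 of that signal less 1 constant per array (correlation 1, within 0.013 of the 75th percentile, column medians -3.60 to -2.74), which settles scale, centring and direction. No genome build is named in the sources used here, and coordinates are not reported.

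Control spots and outlier spots were left out. From log2 of the processed signal the 75th percentile of the array was subtracted, and spots of 1 sequence were averaged. Tests used limma 3.58.1 in R 4.3.3 (lmFit and eBayes, two-sided, Benjamini-Hochberg over all probes tested, threshold 0.05) on probes that were well above background throughout at least 1 of the groups compared, in each tissue for the difference between tissues. Day comparisons had the animal as a block, since the labels name the same animal on both days. Correlations of paired deviations were 0.65, 0.32 and 0.61 in liver and 0.61, 0.36, 0.03 and 0.24 in neutrophils. Errors are standard errors of the fits. The scripts were tested on simulated data. Precision is limited by how few arrays each group has.

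Of the 103 carriers, 102 matched a symbol in the RefSeq table of ARS-UCD2.0, used for names alone, and 100 of these equalled the file's symbol. Named carriers are those past the threshold, or the 3 with the smallest p per direction, up to 3 per direction and family group between tissues, those above background in 1 tissue, and the textbook carriers. Members, family groups and lists were chosen with earlier results of these data known. Alternatives were the normalization, background correction, filter on dim probes, spot position, authors' values, block, day and each animal left out.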

Additional observations from a re-analysis of the deposited data

Results flagged for a closer look

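Among the named carriers, 81 groups of 4 neutrophil samples were examined for a sample far from the others, of which chance flags about 1 in 20, and 4 were found. SLC25A22 was at -3.35 on day 0 in animal 26, against -3.15 to -3.11 in the others. On day 7 animal 34 stood apart for 3 carriers. SLC25A22 was at -3.17 there against -2.49 to -2.42, SLC27A1 at -1.03 against 0.15 to 0.21, and SLC7A5 at -0.75 against 0.77 to 0.82. That array had the lowest median signal of the 14, and the part of this in the 3 values was not tested.

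The change of SLC35B2 over 7 days differed between the tissues by 1.96 on the log2 scale, liver minus neutrophils, as tested by the limma interaction. With the row trend removed the difference was 0.70 and did not pass (adjusted p = 0.476). Of the fits that left out 1 animal, it passed only in the fit without neutrophil animal 34.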

How the results depend on the processing

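Between the tissues on day 0 the counts of 37 carriers higher and 35 lower in liver stayed within 1.5 times under all but 1 alternative: with only probes above background on every array of both groups, 18 were higher. Leaving out 1 animal gave 37 to 38 higher and 33 to 36 lower. Removing the row trend also moved the median of all probes by 0.40, and the values under it are to be read against that. SLC2A1, which did not pass, turned to -0.0246 under quantile normalization and -0.0358 with normexp and quantile together, and ran from -0.00738 to 0.34 with 1 animal left out, and SLC25A5, which did not pass either, to 0.14 with the row trend removed.

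In liver, the 3 carriers higher and 1 lower on day 7 became 1 and 0 with no replicate block (a fit that ignores the pairing by animal), and 0 and 0 with the row trend removed, without the filter on dim probes, and in the inner rows alone, where none of the 4 lies. Of all probes, 436 passed in the main fit, 212 with no replicate block and 27 with the row trend removed. None passed without that filter or in the inner rows alone. Leaving out 1 animal gave 0 to 2 higher and 0 lower, from fits of 2 animals. SLC35A1 turned to 0.10 with the row trend removed. In neutrophils no setting gave a call, and with no replicate block 2 carriers had an unadjusted p under 0.05.

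For the difference between the tissues, the 1 carrier higher became 0 with the row trend removed and 0 to 1 with 1 animal left out. The 0 lower became 1 with no replicate block (SLC22A5, paired by animal in the main fit) and 0 to 2 with 1 animal left out. Carriers above background in neutrophils alone numbered 3 with a majority of the arrays required, 3 on day 0, 4 on day 7 and 1 to 2 with 1 animal left out. In liver alone they numbered 12 to 18. The matching shares of all array sequences were not counted for single days or with 1 animal left out. The cause of these differences between settings was not tested. Values near background are limited by the signal of the array.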
